A study of Syringa oblata with 2 samples.

Results

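The light reactions of photosynthesis were followed in leaves of *Syringa oblata* (lilac) through 165 of the 73159 assembled unigenes. A unigene was taken as a member when its KEGG annotation placed it in the photosynthesis pathway and not among the antenna proteins, or when its Swiss-Prot name marked it as a subunit of the chloroplast NDH complex or as PGR5 or PGR5-like. The rule found 238 unigenes, and the 73 whose best Nr protein match lay in rice (*Oryza*) were dropped. By annotation, 45 of the 165 belonged to photosystem II, 19 to photosystem I, 12 to the cytochrome b6f complex, 14 to the soluble carriers and ferredoxin-NADP reductase (FNR), 14 to the ATP synthase, 36 to NDH and 5 to PGR5 and PGRL1. The remaining 20 carried a KEGG entry of the pathway but no clear name, or the name or protein domain of something else, and were left unplaced.

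Leaves under natural light (Z0) were compared with leaves at 50% to 60% light intensity under a black net (Z1), a treatment that the labels give as 40% to 50% shading. Each condition had 2 RNA-seq libraries (Z0-1, Z0-2, Z1-1 and Z1-2). The table lists TPM, which is a level per transcript length with a common total across libraries, so the read depth is unknown. Natural light is the control, and the methods name 5 trees per group but do not tie trees to libraries.

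Light energy absorbed by photosystem II is used to split water and reduce plastoquinone, the cytochrome b6f complex passes the electrons to plastocyanin or, in some organisms, cytochrome c6, and photosystem I drives them on to ferredoxin, from which FNR makes NADPH. The proton gradient built on the way feeds the ATP synthase. Electrons can also return from ferredoxin to plastoquinone, along a route that depends on PGR5 and PGRL1 and along another through the NDH complex. The cores of these complexes are encoded partly in the plastid genome, while peripheral subunits, such as those of the oxygen-evolving complex and the lumenal part of NDH, are encoded in the nucleus.

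A few facts of the whole table bear on every value that follows. Unigenes matched to carlaviruses, plant RNA viruses, held 22.8% and 13.9% of all TPM in the Z0 libraries and 0.147% and 0.051% in the Z1 libraries. Rice-matched unigenes summed to 32956 TPM in Z1-2, against 2436 to 2955 TPM in each of the other libraries. Light, trees and carlavirus level follow the same split of the libraries and cannot be told apart. The median unigene was 0.45 higher in Z1 on the log2 scale, and this shift became 0.23, 0.12 and 0.18 when the libraries were rescaled by median ratio, by unweighted TMM and without carlavirus- and rice-matched unigenes. Markers of leaf mesophyll (36 unigenes) held between 2.66% and 3.06% of all TPM in each library. That total includes the carlavirus- and rice-matched unigenes, so these shares depend on them. Summed senescence markers (13 unigenes) ranged from 808 to 1176 TPM in Z0 and from 1218 to 1229 TPM in Z1, and summed vascular markers (18 unigenes) from 217 to 308 TPM in Z0 and from 76.6 to 143 TPM in Z1. The strongest vascular marker alone had a mean of 139 TPM. Both Z1 values lay below both Z0 values in 14 mesophyll, 4 senescence and 8 vascular markers, and above in 13, 4 and 2. Over all unigenes the shares were 18.2% below and 41.5% above. The part of these differences in the results below was not tested. In a bulk leaf sample, fewer cells of a type and less RNA per cell cannot be told apart.

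Across the members, few single unigenes passed the test, and their median change lay below that of the table as a whole. The members held 2.32% and 2.42% of all TPM in Z0-1 and Z0-2, 1.77% in Z1-1 and 2.30% in Z1-2. A unigene was called when limma gave it an adjusted p (Benjamini-Hochberg, over all unigenes) under 0.05 and its fold exceeded 2. In Z1, 2 members were called higher and 2 lower, or 2.42% of them, against 5.0% of all unigenes tested. Higher calls made up 3.20% and lower calls 1.80% of all unigenes. The members' split was 1 higher and 2 lower with median-ratio scaling, 0 and 4 with TMM, and 2 and 6 without carlavirus- and rice-matched unigenes, while over all unigenes it was 2344 and 1317 by TPM, 1620 and 1899, 1385 and 2341, and 3691 and 3194. At an unadjusted p under 0.05 with the same fold, 9 members were higher and 9 lower, which is 10.9% of the members against 24.2% of all unigenes. None of the 4 called members remained called with a pseudocount of 0.1 or 5, or with TPM summed over each Trinity component. Such a component joins the unigenes that share the first parts of their identifier. Over all unigenes these settings gave 354 higher and 199 lower calls, 0 and 0, and 4 and 1 (of 30459 components). With 1 library left out a condition keeps a single library, so the calls of those fits are not given. With a filter of 5 TPM in 1 library, 4 members were called higher (DN30060_c0_g3 of PsbW and the ferredoxin-3 unigenes DN33609_c0_g6, DN30282_c0_g2 and DN26200_c0_g1) and 4 lower (PnsL3, Psb28, cytochrome c6 and DN27789_c0_g1 of PsbW). These are 8 of 116 members tested, or 6.90%, against 17.6% of all unigenes under that filter.

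The median log2 fold change of the 165 members was -0.08, which is 0.54 under the median of all unigenes, and it lay between 0.52 and 0.63 under it in the 3 rescaled tables. Without Z1-1 the median of the members was 0.16 and that of all unigenes 0.40. In 41 members (24.8%) both Z1 values lay below both Z0 values, as in 18.2% of all unigenes, and in 34 (20.6%) both lay above, as in 41.5% of all unigenes. Z1-1 was the lowest library in 95 members.

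**Figure D1:**
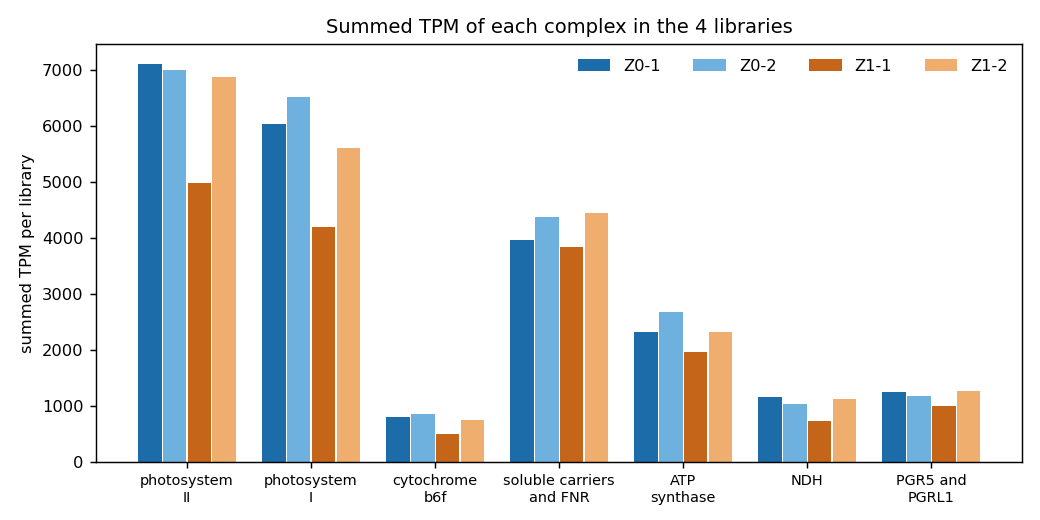
Bars give the TPM summed over the unigenes of each complex in Z0-1, Z0-2, Z1-1 and Z1-2, on a linear axis from 0. Z1-1 is the lowest library for all 7 groups shown, and Z1-2 reaches 6877 TPM for photosystem II, against 6998 and 7108 TPM in Z0.

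In each of the 4 libraries the photosystem II sum was highest, photosystem I next and the cytochrome b6f sum lowest. Photosystem II unigenes summed to 7108, 6998, 4987 and 6877 TPM in Z0-1, Z0-2, Z1-1 and Z1-2. Photosystem I unigenes summed to 6027, 6518, 4202 and 5608 TPM. In both photosystems the 2 Z1 sums lay below the 2 Z0 sums, and by TPM Z1-1 was far below and Z1-2 close to Z0. Scaling without carlavirus- and rice-matched unigenes divides the 4 libraries by relative factors of 0.8616, 0.9607, 1.1158 and 1.0827. It therefore sets both Z1 libraries lower against Z0 than TPM does.

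The smaller complexes had the same low value in Z1-1. The ATP synthase summed to 2317, 2668, 1961 and 2313 TPM, cytochrome b6f to 804, 850, 502 and 740 TPM, and NDH to 1152, 1040, 732 and 1112 TPM. PGR5 and PGRL1 together summed to 1254, 1172, 991 and 1258 TPM, so that Z1-2 was above both Z0 libraries. The soluble carriers and FNR summed to 3963, 4365, 3834 and 4451 TPM, and their conditions overlapped.

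The log2 ratio of the mean Z1 sum to the mean Z0 sum was -0.35 for photosystem I, -0.25 for photosystem II, -0.41 for cytochrome b6f, -0.25 for NDH, -0.22 for the ATP synthase, -0.11 for PGR5 and PGRL1 and -0.01 for the soluble carriers and FNR. Without Z1-1 these became -0.16, -0.04, -0.16, 0.02, -0.11, 0.05 and 0.10 by TPM, so the sign turned for NDH, for PGR5 and PGRL1 and for the carriers. With all libraries, scaling without carlavirus- and rice-matched unigenes gave -0.62, -0.52, -0.68, -0.52, -0.49, -0.38 and -0.28 in the same order. Median-ratio and TMM scaling gave lower ratios still for each group. Leaving out Z1-1 was not combined with rescaling. With 2 libraries a side the smallest p of an exact permutation test is 0.333, and the sums were left untested.

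Ratios within a library do not depend on its scaling, and they set the complexes against each other. Nuclear photosystem I unigenes stood at 90.7%, 100%, 91.6% and 89.5% of nuclear photosystem II unigenes in Z0-1, Z0-2, Z1-1 and Z1-2, and the conditions overlapped. Nuclear NDH unigenes stood at 18.4%, 15.3%, 16.2% and 18.8% of nuclear photosystem I, again with overlap. PGR5 and PGRL1 stood at 20.9%, 18.0%, 23.7% and 22.6% of nuclear photosystem I, so both Z1 ratios were above both Z0 ratios. The Rieske iron-sulfur protein of cytochrome b6f stood at 12.6%, 12.5%, 11% and 12%, with both Z1 ratios below. These ratios and those given below are 13 in all, they were chosen with values known, and none was tested.

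**Figure D2:**
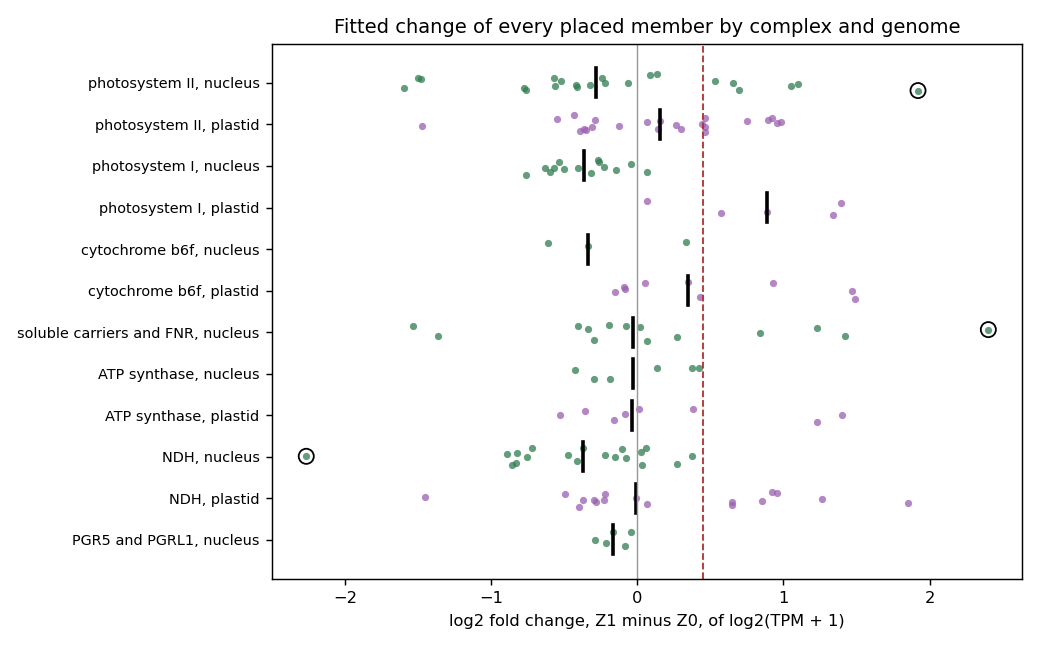
Each point is a placed member at its fitted log2 fold change (Z1 minus Z0, of log2(TPM + 1)), with nuclear-encoded members in green and plastid-encoded members in purple. Black bars are group medians, circles mark the 3 placed members that passed the test, and the dashed line is the median of all unigenes at 0.45.

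Nuclear members had most of the TPM and a lower median change than plastid members. The 83 nuclear-encoded members summed to 21966, 22937, 16625 and 21439 TPM, and the 62 plastid-encoded members to 659, 675, 584 and 919 TPM. The extraction text describes poly(A) selection, which captures plastid transcripts poorly, so levels of plastid and nuclear members cannot be compared as transcript abundance. The median log2 fold change was -0.24 for nuclear members, of which 58 lay below 0, and 0.15 for plastid members, of which 25 lay below 0. With all 3 rescalings the plastid median turned negative, at -0.07, -0.16 and -0.04, while the nuclear median was -0.54, -0.68 and -0.50. Without Z1-1 the nuclear median was 0.01 and the plastid median 0.43.

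Both Z1 values were below both Z0 values in 31 nuclear members (37.3%) and 7 plastid members (11.3%), against 18.2% of all unigenes. Both were above in 11 nuclear (13.3%) and 16 plastid members (25.8%), against 41.5%. Those 16 plastid members all had a mean under 10 TPM. Of the 11 plastid members at 10 TPM or more, 10 overlapped and 1 lay below. The sum of plastid members was 3.0%, 2.94%, 3.51% and 4.29% of that of nuclear members. In addition, 6 plastid unigenes (psaC, petB, psbB, psbE, psbN and atpH copies, named after their values were seen) reached 2.43 to 10.8 TPM in Z1-2 and at most 0.48 TPM elsewhere. Their best Nr matches were in 6 genera (*Brassica*, *Nandina*, *Masdevallia*, *Microlaena*, *Triticum* and *Capsicum*), and without them the plastid median was 0.07.

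Most plastid members were also thinly covered, with 51 of 62 under a mean of 10 TPM and 10 at 0 in at least 1 library. The strongest, a psbA unigene for the D1 reaction centre protein of photosystem II, had 293, 299, 264 and 363 TPM (DN30349_c0_g2, named after its values were seen). Its conditions overlapped, and the log2 fold change was 0.06. A psbD unigene for the D2 protein had 45.7, 55.2, 52.6 and 91.6 TPM (DN34546_c0_g3, likewise), also with overlap. Low psbA unigenes of the same component, named after their values were seen, differed in sign. DN30349_c0_g3 had 3.31, 2.70, 0.52 and 0.36 TPM, with a log2 fold change of -1.47 and a limma adjusted p of 0.0608. It was called lower without carlavirus- and rice-matched unigenes (limma adjusted p = 0.0448). DN30349_c0_g4 had 1.13, 0.77, 1.64 and 1.72 TPM.

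In photosystem II the nuclear subunits of the oxygen-evolving complex had lower TPM in Z1, and PsbY higher TPM. Orders of subunit sums, here and below, were read from TPM and not from rescaled values. Of its 10 nuclear subunits, 7 had summed levels in both Z1 libraries below those in both Z0 libraries, 1 (PsbY) had them above, and PsbS and the PsbP-like protein PPL1 overlapped (single unigenes of the whole table: 18.2% below and 41.5% above). Without Z1-1 the median of the 22 nuclear unigenes of photosystem II was 0.03, against -0.28 with it. PsbO, the manganese-stabilizing protein of the oxygen-evolving complex, had 1572, 1507, 1057 and 1269 TPM (DN32986_c0_g1). PsbQ, a further subunit of that complex, had 587, 598, 362 and 470 TPM (DN31171_c1_g1). PsbR, which helps to hold the complex together, had 948, 987, 546 and 779 TPM (DN31116_c1_g3). In each of these the Z1 values were lower than the Z0 values, with log2 fold changes of -0.41, -0.52 and -0.57, and none passed the test (limma adjusted p of 0.287, 0.213 and 0.228).

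PsbS, a sensor in the process that turns excess light into heat in the antenna, did not share their order. The Z0 libraries gave 1144 and 1059 TPM and the Z1 libraries 914 and 1489 TPM (DN36067_c0_g1), so the conditions overlapped. Its log2 fold change was 0.08 with a standard error of 0.31, and it was negative in all 3 rescaled tables. Relative to PsbO in the same library it stood at 72.8% and 70.3% in Z0 and at 86.5% and 117% in Z1.

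Psb28, which binds photosystem II while the complex is being assembled, had 116 and 89.9 TPM in Z0 against 25.3 and 43.3 TPM in Z1 (DN27983_c0_g1). Both Z1 values were less than 50% of either Z0 value. The log2 fold change was -1.59 with a standard error of 0.33, an unadjusted p of 0.00634 and an adjusted p of 0.066 by limma, so it was not called. It was called in the rescaled table without carlavirus- and rice-matched unigenes, in the TMM-scaled table and with the filter at 5 TPM, with adjusted p of 0.0464, 0.0486 and 0.0158 (0.0158 to 0.294 over all alternatives). Relative to PsbO it stood at 7.37%, 5.96%, 2.39% and 3.41%.

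PsbW, a small subunit that stabilizes photosystem II supercomplexes, was spread over 4 unigenes with unlike values. The unigene DN27789_c0_g1 had 356 and 369 TPM in Z0 against 93.0 and 181 TPM in Z1, with a log2 fold change of -1.48 and an adjusted p of 0.0852. The unigene DN30060_c0_g3, placed as PsbW by KEGG and Pfam alone, had 8.59 and 5.64 TPM in Z0 against 29.3 and 29.1 TPM in Z1. It passed the test at a log2 fold change of 1.92 (standard error 0.27, adjusted p = 0.0416 by limma, 0.00516 to 0.875 over the alternatives), and was not called with median-ratio or TMM scaling (adjusted p of 0.0615 and 0.0634).

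The other PsbW unigenes, DN30060_c0_g1 and DN30060_c0_g6 of the same Trinity component, had between 249 and 443 TPM with overlapping conditions (named after their values were seen). Summed over that component the log2 fold change was -0.06, so the rise of DN30060_c0_g3 is absent from its component, of which it is a small part. DN27789_c0_g1 made up 34.3% and 31.4% of all PsbW in Z0 and 14.2% and 17.5% in Z1. Close copies of a gene can share reads, and the way Salmon divided them here was not analysed.

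PsbY, another small subunit, also had unigenes with opposite signs (both unigenes named after their values were seen). DN33466_c1_g3 had 311 and 299 TPM in Z0 against 523 and 442 TPM in Z1, a log2 fold change of 0.65 with an adjusted p of 0.125. DN33466_c1_g1 of the same component had 167 and 124 TPM in Z0 against 66.7 and 105 TPM in Z1, a log2 fold change of -0.78 with an adjusted p of 0.19. The share of DN33466_c1_g3 in all PsbY was 65.0% and 70.5% in Z0 and 88.4% and 80.5% in Z1. A second PsbR unigene, DN28092_c1_g7, had 37.1 and 30.9 TPM in Z0 against 6.54 and 19.2 TPM in Z1, with an adjusted p of 0.147.

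**Figure D3:**
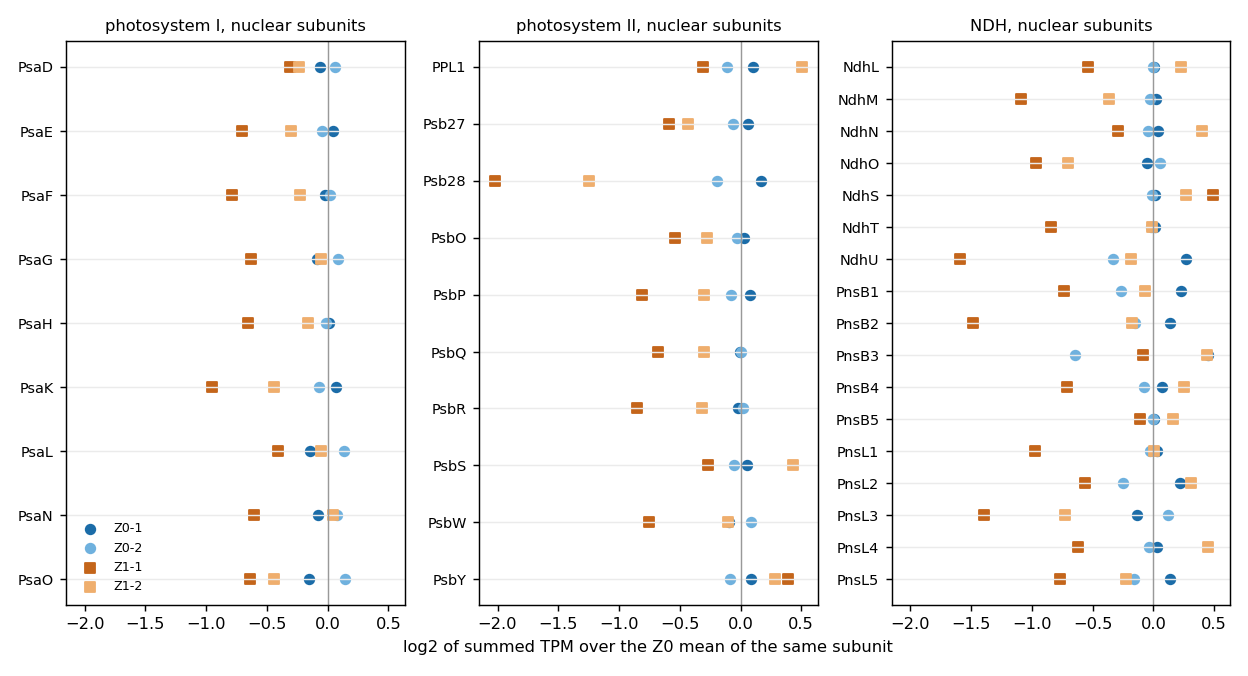
Points give the summed TPM of each nuclear-encoded subunit in each library as a log2 ratio to the mean of the 2 Z0 libraries, for photosystem I, photosystem II and NDH. Z1-1 (dark squares) is the lowest library in 9 of 9, 9 of 10 and 15 of 17 subunits, and Z1-2 (light squares) lies above it in those subunits.

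In photosystem I most nuclear subunits had lower sums in Z1, by an amount that depends on Z1-1 and on the scaling. Of its 9 nuclear subunits 6 had both Z1 sums below both Z0 sums, none had them above, and Z1-1 was the lowest library in all 9. Among single unigenes with a mean of at least 10 TPM over the whole table, 14.8% had both Z1 values below and 53.1% both above. PsaL, which docks light-harvesting complexes and holds trimers together in cyanobacteria, had 1078, 1312, 900 and 1151 TPM (DN31531_c0_g1). PsaF, the docking site of plastocyanin, had 956, 984, 563 and 831 TPM (DN31696_c1_g5). PsaH, needed for docking of the mobile antenna, had 892, 880, 563 and 792 TPM (DN31448_c0_g1), and PsaD, the ferredoxin docking subunit, had 783, 854, 660 and 696 TPM (DN30837_c0_g1). The conditions overlapped for PsaL and did not overlap for the other three.

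The log2 fold changes of PsaL, PsaF, PsaH and PsaD were -0.23, -0.50, -0.41 and -0.27, with adjusted p from 0.287 to 0.541 by limma. Over the 14 nuclear unigenes of photosystem I the median was -0.36, the middle 50% ran from -0.56 to -0.23, 13 were below 0, and no member was called. Without Z1-1 that median was -0.12 with 9 below 0, the median of all 19 photosystem I unigenes turned to 0.05, and Z1-2 lay above the Z0 mean in 5 of the 14. The lowest was PsaK, a peripheral antenna-side subunit, with 244, 232, 117 and 167 TPM (DN27471_c0_g1, named after its values were seen; log2 fold change -0.76, adjusted p = 0.136). The plastid-encoded psaA, psaB and psaC unigenes, 5 in all, summed to only 21.8, 20.4, 22.5 and 37.6 TPM.

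In the cytochrome b6f complex the main Rieske unigene had lower values in both Z1 libraries. The Rieske protein carries electrons from plastoquinol to cytochrome f. Its unigene DN28873_c1_g1 had 673 and 732 TPM in Z0 against 387 and 547 TPM in Z1, a log2 fold change of -0.61 with a standard error of 0.26 and an adjusted p of 0.201. The unigenes DN30658_c4_g1 (72.4, 63.1, 70.04 and 104 TPM) and DN30658_c4_g2 (9.73, 14.3, 4.61 and 17.4 TPM) overlapped between conditions. The plastid petB unigene for cytochrome b6 had 22.7, 20.2, 14.0 and 28.8 TPM (DN28647_c0_g4), and a petA fragment for cytochrome f had 0.48, 0.45, 1.80 and 4.85 TPM (DN32128_c0_g10, adjusted p = 0.119).

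**Figure D4:**
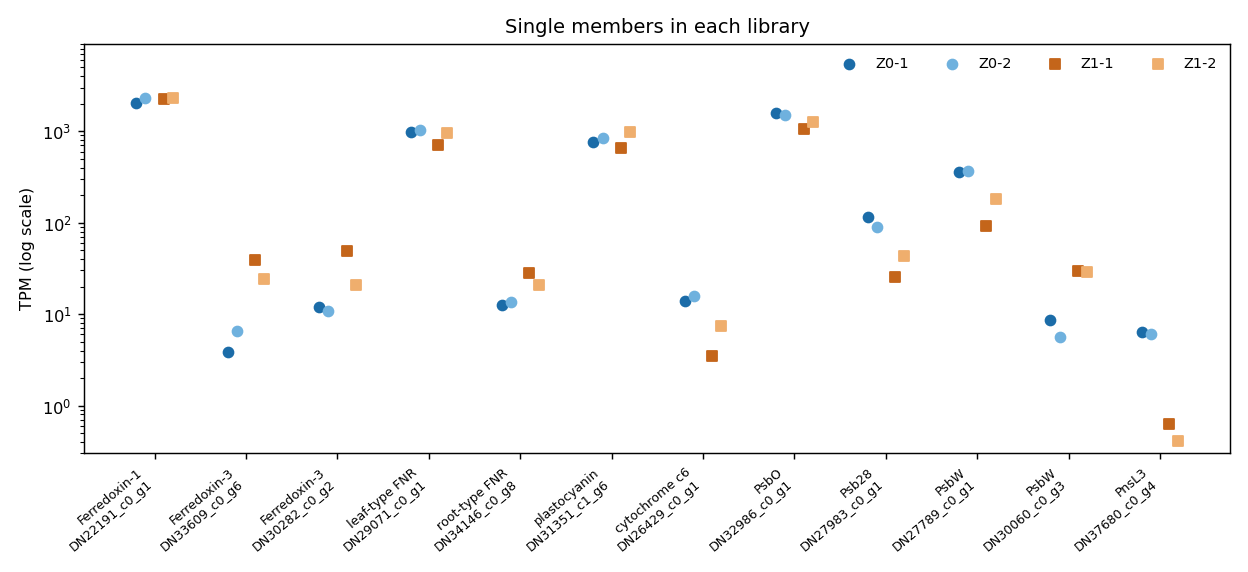
Points give TPM on a log axis in each library (circles Z0, squares Z1) for 12 members. Ferredoxin-1, leaf-type FNR, plastocyanin and PsbO lie within a factor of 2 over the 4 libraries, while the ferredoxin-3 and root-type FNR unigenes and DN30060_c0_g3 are higher and cytochrome c6, Psb28, DN27789_c0_g1 and PnsL3 lower in both Z1 libraries.

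Among the soluble carriers the most abundant forms overlapped between conditions, and 3 of 4 unigenes named ferredoxin-3 had higher values in both Z1 libraries. Ferredoxin-1, the most abundant of all members, had 2049, 2325, 2251 and 2316 TPM (DN22191_c0_g1), with overlap and a log2 fold change of 0.07. Plastocyanin, the copper protein that carries electrons to photosystem I, had 755, 834, 657 and 985 TPM (DN31351_c1_g6), also with overlap. A unigene named ferredoxin-2 had 73.7 and 79.3 TPM in Z0 against 51.8 and 70.3 TPM in Z1 (DN25954_c0_g1, adjusted p = 0.407).

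Ferredoxin-3, in *Arabidopsis* the form of roots and other tissues without photosynthesis, rose in 1 unigene. DN33609_c0_g6, a fragment of 353 nt named by its Nr match, had 3.84 and 6.52 TPM in Z0 against 39.0 and 24.4 TPM in Z1. Its log2 fold change was 2.4 (standard error 0.36, adjusted p = 0.0457 by limma, 0.00437 to 0.26 over the alternatives), the largest fitted rise among the members, and its adjusted p was 0.0522 with TMM scaling. Its Trinity component also holds unigenes with other names, so the component sum is not one of ferredoxin. DN30282_c0_g2 had 11.98 and 10.8 TPM in Z0 against 49.3 and 20.8 TPM in Z1 (log2 fold change 1.42, adjusted p = 0.125), and DN26200_c0_g1 had 4.90 and 4.50 TPM in Z0 against 15.7 and 9.72 TPM in Z1 (1.23, adjusted p = 0.0839, named after its values were seen). In these 3 both Z1 values were above both Z0 values, and Z1-1 was the highest library. The fourth, DN30282_c0_g3 (also named after its values were seen), had 2.91, 6.21, 5.64 and 5.18 TPM, with overlap and its highest value in Z0-2. All 4 together stood at 1.15% and 1.20% of ferredoxin-1 in Z0 and at 4.87% and 2.60% in Z1.

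FNR, which takes electrons from ferredoxin to NADP+, was read from 5 unigenes. The main leaf-type unigene DN29071_c0_g1 had 989 and 1032 TPM in Z0 against 707 and 955 TPM in Z1, a log2 fold change of -0.30 with an adjusted p of 0.448. The root-type unigene DN34146_c0_g8 gave 12.6, 13.6, 28.4 and 20.6 TPM, a log2 fold change of 0.84 with an adjusted p of 0.114 (named after its values were seen). DN29071_c0_g5, a low leaf-type unigene, gave 2.94, 2.32, 0.16 and 0.34 TPM, a log2 fold change of -1.54 with an adjusted p of 0.0659, and was called lower in the table without carlavirus- and rice-matched unigenes (adjusted p = 0.0454). DN29071_c0_g2 and DN31232_c0_g3 overlapped between conditions at 0.80 to 11.1 TPM. These last 3 were also named after their values were seen. The share of the root-type unigene in all FNR was 1.24% and 1.28% in Z0 and 3.82% and 2.09% in Z1.

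A unigene named for cytochrome c6, a haem protein that stands in for plastocyanin in algae, had lower values in both Z1 libraries. Its role in lilac was not tested. DN26429_c0_g1 had 14.0 and 15.7 TPM in Z0 against 3.49 and 7.45 TPM in Z1, a log2 fold change of -1.36 with a standard error of 0.37 and an adjusted p of 0.0997. Relative to plastocyanin it stood at 1.85% and 1.88% in Z0 and at 0.531% and 0.757% in Z1.

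The ATP synthase, which turns the proton gradient into ATP, had no called member. Its most abundant unigene, subunit b' of the membrane part, had 1144, 1441, 1075 and 1181 TPM (DN38248_c2_g14), with overlap and a log2 fold change of -0.19. The delta subunit gave 651, 737, 532 and 595 TPM (DN33718_c1_g2), and the gamma subunit, the rotor of the catalytic part and a site of redox control, gave 378, 362, 227 and 333 TPM (DN29825_c0_g1). Both were lower in each Z1 library, with log2 fold changes of -0.30 and -0.43 and adjusted p of 0.40 and 0.346. A further unigene named for the delta subunit had 84.0, 56.9, 77.2 and 105 TPM (DN27130_c0_g1), and a plastid atpB fragment had 0.96, 0.66, 3.68 and 3.86 TPM (DN36406_c0_g3, adjusted p = 0.0576).

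The NDH complex, which returns electrons from ferredoxin to plastoquinone, held the only placed member that was called lower. PnsL3 is a lumenal subunit related to PsbQ. Its unigene DN37680_c0_g4 had 6.45 and 6.12 TPM in Z0 against 0.63 and 0.41 TPM in Z1. It fell by 2.26 on the log2 scale (standard error 0.26, adjusted p = 0.0362 by limma, 0.0227 to 0.26 over the alternatives), and its adjusted p was 0.0505 and 0.0712 with pseudocounts of 0.1 and 5. The second PnsL3 unigene of that component, DN37680_c0_g3, gave 36.9, 45.7, 17.5 and 28.3 TPM (log2 fold change -0.86, adjusted p = 0.157, named after its values were seen), and the sum of both gave 43.3, 51.8, 18.1 and 28.7 TPM. The whole component, which also holds an outer envelope protein and an unnamed unigene, had a log2 fold change of -0.47 with an adjusted p of 0.223.

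The other nuclear NDH subunits lay on both sides of 0. NdhM of the stromal arm gave 120, 116, 55.2 and 91.3 TPM (DN28229_c1_g2, log2 fold change -0.72, adjusted p = 0.20). NdhL, which anchors the ferredoxin-binding part to the membrane, had 102, 102, 70.2 and 119 TPM (DN30440_c4_g2), PnsB5 had 82.0, 81.3, 75.8 and 91.3 TPM (DN33160_c2_g2) and PnsB4 had 82.0, 74.0, 47.7 and 92.7 TPM (DN36526_c0_g2), all with overlap. Of 17 nuclear subunits 5 had both Z1 sums below both Z0 sums (NdhM, NdhO, PnsB2, PnsL3 and PnsL5), 1 had them above and 11 overlapped, beside 18.2% below and 41.5% above among all unigenes. Without Z1-1 the median of the 19 nuclear NDH unigenes was 0.0, against -0.37 with it.

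The subunit with higher Z1 values by TPM was NdhS, which forms part of the ferredoxin-binding site. It gave 49.8, 49.03, 69.3 and 59.5 TPM (DN31965_c0_g1, log2 fold change 0.37, adjusted p = 0.291), while NdhO of the stromal arm gave 90.3, 97.6, 48.1 and 57.6 TPM (DN25495_c0_g1, -0.82, adjusted p = 0.0874). Both were named after their values were seen, and NdhO was called lower with TMM scaling (adjusted p = 0.0408) and in the table without carlavirus- and rice-matched unigenes (0.0414). The plastid ndh unigenes, 17 over 8 subunits, summed to 48.0, 44.9, 53.0 and 65.1 TPM. An ndhJ unigene had 0.41, 0, 2.56 and 4.15 TPM (DN31604_c0_g6, adjusted p = 0.0632), and an ndhG unigene had 0.75, 0.70, 3.79 and 2.59 TPM (DN27173_c1_g6, adjusted p = 0.0783).

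PGR5 and PGRL1, the pair behind the other cyclic route, showed no order between conditions by TPM. The 3 PGR5 unigenes had 525, 522, 479 and 537 TPM (DN29875_c0_g3), 111, 117, 91.9 and 125 TPM (DN29875_c0_g4) and 89.1, 73.6, 59.3 and 73.8 TPM (DN29875_c0_g1). The PGRL1 unigenes had 325, 283, 219 and 333 TPM (DN36645_c0_g1) and 204, 177, 142 and 189 TPM (DN36645_c0_g4). The conditions overlapped in all 5, Z1-1 was the lowest library in each, and the log2 fold changes ran from -0.29 to -0.05 with adjusted p from 0.444 to 0.876. Their median of -0.17 became -0.48, -0.63 and -0.44 under median-ratio, TMM and carlavirus- and rice-free scaling, and 0.04 without Z1-1. The overlap was read from TPM and not from rescaled values.

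One unplaced member also passed the test. DN32569_c0_g6 carries the KEGG entry of the CP43 protein of photosystem II but a domain of aspartic proteases, and it had 3.41 and 6.11 TPM in Z0 against 0.18 and 0.20 TPM in Z1. It fell by 2.23 on the log2 scale (standard error 0.35, adjusted p = 0.0469 by limma, 0.0335 to 0.909 over the alternatives), and was not called with the filter at 5 TPM (adjusted p = 0.0762). An unplaced unigene with the name of the ATP synthase beta subunit in Swiss-Prot and of a proline-rich protein of photosystem II in Nr had 287, 288, 229 and 335 TPM (DN33010_c1_g2, named after its values were seen).

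Neighbouring gene groups were read from the same fit, in which 5.0% of all unigenes were called and 24.2% passed the unadjusted threshold. Of 74 unigenes for assembly, repair and state-transition factors of the photosystems, none was called in either direction, 7 (9.46%) passed an unadjusted p under 0.05 with a fold over 2, and the median log2 fold change was -0.12. Of the 25 antenna proteins 1 was higher and 2 were lower, with a median of -0.35 and summed levels of 8180, 8243, 8014 and 8295 TPM. Of 276 unigenes of carbon fixation, in the stroma and cytosol, 8 were higher and 7 lower (5.43%), with a median of 0.07. Of 514 of oxidative phosphorylation, in mitochondria, 4 were higher and 17 lower (4.09%), with a median of 0.17. Both shares are near that of all unigenes. Under median-ratio, TMM and carlavirus- and rice-free scaling the antenna median was -0.67, -0.81 and -0.62. The carbon fixation median was then -0.19, -0.29 and -0.15, and that of oxidative phosphorylation -0.09, -0.22 and -0.06. For the assembly, repair and state-transition factors it was -0.42, -0.55 and -0.38. By TPM, the antenna sums of the 4 libraries were closer to each other than the photosystem sums.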

How the data were processed

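RNA from leaves was sequenced in 4 libraries. By the methods of the study, Trinity 2.4.0 built the assembly from the reads, unigenes were annotated with DIAMOND, and Salmon gave the levels. The submitters' notes also name cutadapt, FastQC and edgeR, with no versions. The authors deposited 1 table of TPM with annotation, scaled to between 999297 and 999450 per library. The labels give genomic DNA as the molecule although their extraction text describes poly(A) RNA, and 1 sample per condition, so repeats follow the column names. The methods call the 2 libraries of a condition biological repeats but do not say which trees each holds.

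TPM were taken as log2(TPM + 1), which understates changes at low level, with a filter of 1 TPM in 1 library that removed nothing. limma 3.58.1 in R 4.3.3 (trended prior, no covariate) was fitted to all 73159 unigenes, with Benjamini-Hochberg adjustment over all of them, and was tested on simulated data. Tables and plots used Python 3.11.15 and matplotlib 3.10.9. Calls combine an adjusted p below 0.05 with a fold above 2. Unigenes were placed in complexes by KEGG entry, Swiss-Prot name and Pfam family, and 2 placements (DN30060_c0_g3 and a psaA-named unigene) were set after their values had been seen. In each complex the unigenes named are the 4 of highest mean TPM, those called, up to 3 of highest level with an unadjusted p under 0.05, a fold over 2 and no overlap, PsbS, and all PGR5 and PGRL1 unigenes. Members and lists were chosen with earlier results of these data known. No sequences were used.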

Additional observations from a re-analysis of the deposited data

Results flagged for a closer look

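The 73 rice-matched unigenes that met the same annotation rule and were dropped from the members carried a signal in a single library. Their sum was 20.4 TPM in Z0-1, 13.7 TPM in Z0-2, 0.0 TPM in Z1-1 and 1571 TPM in Z1-2, above the level in the natural-light controls. None of the 73 was called by limma, 0 passed an unadjusted p under 0.05 with a fold over 2, and all 73 had their highest value in Z1-2.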

How the results depend on the processing

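The 4 calls among the members became 0 with a pseudocount of 0.1 or 5 and with TPM summed per Trinity component, 8 with a filter at 5 TPM, 8 after rescaling without carlavirus- and rice-matched unigenes and 18 at an unadjusted p. Over all unigenes the calls also fell in the first 3 of these settings, from 2344 higher and 1317 lower. They became 354 and 199 (pseudocount 0.1), 0 and 0 (pseudocount 5) and 4 and 1 (components). A fit without 1 library keeps a single library in a condition, so its calls are not given. At an unadjusted limma p with the fold, members numbered 9 higher and 9 lower (pseudocount 0.1) and 3 and 4 (pseudocount 5). Over all 73159 unigenes these counts were 13665 and 6364, and 2936 and 1179. Of the 118 components that hold a member 11 were higher and 3 lower, and of all 30459 components 3530 and 1895. The member median of -0.08 moved to -0.50 with TMM scaling, and ranged from -0.31 to 0.16 over the libraries left out. Over the 118 components that hold a member the median was 0.06, but some of them also hold unigenes of other proteins. The nuclear median was -0.54, -0.68 and -0.50 under median-ratio, TMM and carlavirus- and rice-free scaling and -0.53 to 0.01 with a library left out; the plastid median was -0.07, -0.16 and -0.04, and -0.10 to 0.43. The log2 ratio of the summed TPM of all members, -0.22, was -0.53, -0.68 and -0.49 under these scalings and -0.42 to -0.04 with a library left out. DN30060_c0_g3 had 1.92 alone, and its component, of which it is a small part, had -0.06. The cause of its own rise was not tested. Without Z1-1, 7 of 42 named unigenes changed sign, and no named unigene did with other pseudocounts or filters. The replicate block kept 4 calls and a median of -0.08; same-numbered libraries did not deviate together (correlation -0.087 over 73159 unigenes), so the numbers pair nothing. With a library left out, the lone one of its condition is assumed to vary like the other pair. Without the 6 plastid unigenes read in Z1-2 almost alone, an alternative added after seeing the data, the member median was -0.09. TPM keep no depth, so the precision of low values is unknown.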
